A study of Homo sapiens with 12 samples.

Results

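Histone genes were examined in RNA-Seq data of 201B7, an established human induced pluripotent stem cell (iPSC) line derived from skin fibroblasts. The genes were chosen by name. They were the genes of the histone clusters, whose names begin with HIST1H to HIST4H, and 10 replacement variants, with names that end as pseudogene names do left out. This gave 85 of the 60617 genes in the TPM table (transcript levels per gene length, scaled to a fixed sum in each library), of which 75 were clustered genes and 10 were variants. The names are those of the deposited tables, in which for example H1FX is the gene now called H1-10. No gene entered or left the set because of its measured value. By annotated biotype, 5 of the 75 clustered genes are still pseudogenes, namely HIST2H2BA, HIST2H2BC, HIST2H2BD, HIST2H3DP1 and HIST3H2BA. They are kept in the counts and sums below.

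All libraries came from 1 cell line in wells of shared plates, harvested on Day 5. Cond 1 was the control in StemFit medium. In Cond 2 (labelled Low nutrient) this medium had been heated at 56 °C for 30 min before use. In Cond 3 (labelled Differentiation) the cells received DMEM with 10% FBS, nonessential amino acids and GlutaMax, and in Cond 4 (physical stimulus) they were pipetted 20 times at passaging. The study describes the heated medium as given from Day 2 and the FBS on Day 4. The kind of medium and the length of exposure therefore cannot be told apart between Cond 2 and Cond 3. Each condition had 3 libraries, with total counts between 16441148 and 21871503. The study calls the replicates technical in its results, while its methods describe the whole arrangement as carried out in triplicate. Whether the replicates were separate cultures is thus not clear. The p-values below measure the spread between these libraries and may not cover that between separate cultures. Of 10 genes of pluripotent cells, SOX2 lay between 878 and 1333 TPM in the 12 libraries, LIN28A between 1613 and 2235, TDGF1 between 351 and 1346, NANOG between 9.93 and 48.1, and POU5F1 between 0.412 and 1.57. By immunostaining, the study found the protein of POU5F1, called OCT4, in most control cells. The low TPM of POU5F1 is therefore not read as near absence of its RNA, and its cause was not tested. In Cond 2, 3 of the 10 were called higher and 4 lower, where 20.9% of all genes tested were called. In Cond 3, 5 were called higher and 4 lower, where 38.4% of all genes were called. In bulk RNA a change in the share of cells of one type and a change in RNA per cell cannot be told apart.

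Nucleosomes are built from the core histones H2A, H2B, H3 and H4, and the linker histone H1 binds the DNA between them. The clustered genes supply most new histone while DNA is replicated, and their mRNAs usually end in a short stem-loop in place of a poly(A) tail. SLBP, the stem-loop binding protein, holds this end, and the mRNAs are degraded when replication stops. Replacement variants are encoded outside the clusters, are made throughout the cell cycle, and mostly have polyadenylated mRNAs. The libraries were made from poly(A)-selected RNA, so that the clustered genes were measured only through the part of their RNA that this selection retained.

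The stem-loop separated the clustered genes from the variants in sequence. A hairpin of 16 bases was searched on the coding strand within 100 bases after the stop codon in GENCODE release 44. Fixed letters were GG and CT in the first arm, AG and CC in the second, and T at the start of the loop of 4 bases. The other letters of the arms had to pair, with G to T allowed. This hairpin was present in 68 of 68 clustered genes with a protein-coding model in that release and in 1 of 10 variants. Over all protein-coding genes it was present in 75 of 19505, or 0.385%. The variant was H2AFX, whose longest transcript model continues for 1024 bases beyond the loop. The stem-loops of 6 clustered genes from all 5 families and of H2AFX are printed here with the loop in capitals. They show the letters of this element in each family, and its part in the levels of these genes was not tested. Positions are on GRCh38.
HIST1H1C (chr6:26055744-26055759, reverse strand): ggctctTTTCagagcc
HIST1H2AC (chr6:26124669-26124684, forward strand): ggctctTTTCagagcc
HIST1H2AG (chr6:27133515-27133530, forward strand): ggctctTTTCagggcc
HIST1H2BK (chr6:27146366-27146381, reverse strand): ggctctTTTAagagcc
HIST1H3A (chr6:26020932-26020947, forward strand): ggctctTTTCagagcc
HIST1H4I (chr6:27139654-27139669, forward strand): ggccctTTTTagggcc
H2AFX (chr11:119094898-119094913, reverse strand): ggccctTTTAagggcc

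Promoters differed between the families as well. RefSeq promoter windows from 250 bases before to 50 bases after the start were matched for 65 clustered genes and 9 variants. CCAAT, searched on both strands as were the other motifs, lay in 84.6% of the clustered windows against 34.6% of all 35116 windows, and TATAAA in 66.2% against 11.5%. The octamer ATTTGCAT, a known element of H2B promoters, lay in 77.8% of 18 H2B and 68.8% of 16 H2A windows but in 1.77% of all windows, and in 0% of the 13 H4 and 6 H1 windows. The H4 windows held CCAAT in 23.1% of cases, whereas each of the windows of the other clustered families held it. Where an H2A and an H2B gene share a stretch of promoter, their windows overlap and the same octamer can count for both. The H2A and H2B shares are therefore not independent. A match is only a description of these letters.

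Of the promoters, 3 are printed as the 250 bases before the start on the gene's strand, with matches in capitals. The window of HIST1H2AG begins within the first bases of HIST1H2BJ, which is read the other way, so that 1 stretch of DNA serves an H2A and an H2B gene. That of HIST1H4I is an H4 window without the octamer or TATAAA, and that of H2AFX, a variant, holds CCAAT and TATAAA. The build is GRCh38.p14.
HIST1H2AG (chr6:27132793-27133042, forward strand): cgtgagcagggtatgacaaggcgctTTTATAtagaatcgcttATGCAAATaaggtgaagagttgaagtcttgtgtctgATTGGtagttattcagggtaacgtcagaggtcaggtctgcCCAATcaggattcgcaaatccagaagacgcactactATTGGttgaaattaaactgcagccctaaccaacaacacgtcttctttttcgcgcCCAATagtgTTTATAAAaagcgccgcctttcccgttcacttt
HIST1H4I (chr6:27139032-27139281, forward strand): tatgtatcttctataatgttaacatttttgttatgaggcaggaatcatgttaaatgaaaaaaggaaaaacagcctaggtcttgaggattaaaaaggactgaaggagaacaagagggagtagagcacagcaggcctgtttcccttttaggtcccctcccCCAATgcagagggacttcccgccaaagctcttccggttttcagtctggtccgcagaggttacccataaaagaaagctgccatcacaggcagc
H2AFX (chr11:119095466-119095715, reverse strand): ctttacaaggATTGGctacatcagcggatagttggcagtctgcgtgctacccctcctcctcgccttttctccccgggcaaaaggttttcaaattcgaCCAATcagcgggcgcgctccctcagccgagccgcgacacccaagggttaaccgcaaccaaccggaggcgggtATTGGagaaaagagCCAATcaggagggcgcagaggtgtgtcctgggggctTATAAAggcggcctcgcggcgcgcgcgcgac

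The variants were far more abundant than the clustered genes in these poly(A) libraries. The mean level of a variant lay between 15.4 TPM (H2AFY) and 660 TPM (H1F0), and the median clustered gene was at 1.17 TPM. Of the 75 clustered genes, 12 were listed at 0 in every library, 42 had a mean of at least 1 TPM and 8 of at least 5 TPM. In Cond 1 the clustered genes made up 6.85% ± 0.429 (SD, n = 3) of the summed histone TPM. Cond 2 had a lower mean share, 5.96% ± 0.647, Cond 3 a higher one, 7.97% ± 0.675, and Cond 4 had 7.03% ± 0.105 (SD, n = 3). The lower share in Cond 2 was not a lower clustered sum in TPM. That sum averaged 212 ± 5.92 TPM in Cond 1 and 234 ± 26.9 in Cond 2 (SD, n = 3). The variants summed to 2884 ± 120 TPM in Cond 1 and 3697 ± 60.1 in Cond 2 (SD, n = 3). HIST1H2BK, an H2B gene, was highest by far among the clustered genes at a mean of 71.3 TPM. HIST1H1C, a linker histone gene, followed at 24.4 TPM and the H2A genes HIST2H2AC and HIST1H2AC at 16.3 and 15.1 TPM. Sequence copies limit some of these values. Of the 31-base words in the transcripts of HIST1H2BK only 29.0% were unique to it, while the median over the clustered genes was 90.1% and the variants lay between 79.5 and 100%. Of the 12 genes at 0, 5 had under 50% unique words. Another gene on the same strand overlaps over 50% of the exon bases in 3 of the 12 and in 3 of the 63 others. In all, 5 of the 12 had 1 of these limits or both, and the rest had at least 80% unique words. Some genes with reads also had few unique words, such as HIST1H4J with 7.52%. Whether shared sequence led to the zeros was not tested. A value of 0 in these poly(A) libraries is not read as absence of RNA.

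Levels per length also depend on the gene models that were used for counting. Of 23 clustered genes counted on at least 1000 bases, 16 had enough reads to be tested, and of 52 counted on shorter models 12 did. In 14 of those 23 the counted model was over 100 bases longer than the one in GENCODE release 44. HIST1H2AG was counted on 2250 bases and has 493 there. Whether its reads lay before or beyond the stem-loop was not tested, since the files give 1 count per gene. H2AFY and H2AFY2 had 982 to 1933 and 548 to 1820 reads per library, but were counted on 17730 and 1932 bases, so their TPM values are not compared with each other below.

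Linker histone variants rose in the altered media, and H1FX rose in Cond 4 as well. H1FX, a linker variant encoded outside the clusters, had 298, 317 and 297 TPM in Cond 1, 451, 471 and 472 in Cond 2, 544, 509 and 534 in Cond 3, and 446, 437 and 418 in Cond 4. All 9 libraries of the altered conditions lay above the 3 of Cond 1, and those of Cond 3 above all others. Relative to Cond 1, the log2 fold change of H1FX was 0.53 in Cond 2 (standard error, SE, 0.0531, with adjusted p = 1.00e-07 in the edgeR fit, a quasi-likelihood test across all genes), 0.77 in Cond 3 (SE 0.0530, edgeR adjusted p = 1.17e-10) and 0.50 in Cond 4 (SE 0.0531, edgeR adjusted p = 2.72e-05). The comparison of Cond 4 with Cond 1 called only 5 of 17747 genes, a background of 0.0282% (0.0225% higher and 0.00563% lower), and H1FX was 1 of these and the only histone gene called there. Without any 1 of the 6 libraries compared, its log2 fold change in Cond 4 stayed between 0.48 and 0.53. An antisense gene overlaps part of H1FX, and whether the counting used the strand is not given in the sources used here.

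H1F0, the linker variant known to accumulate as cells differentiate, has no count row and was tested on log2(TPM + 1) with limma. Its levels were 567, 505 and 573 TPM in Cond 1, 819, 857 and 858 in Cond 2, 680, 643 and 667 in Cond 3, and 594, 539 and 620 in Cond 4. Cond 2 lay above every other library, and Cond 3 lay between Cond 2 and Cond 1 without overlap. The log2 fold change was 0.62 in Cond 2 (limma adjusted p = 2.03e-04), where limma called 25.2% of 14253 genes, and 0.28 in Cond 3 (limma adjusted p = 0.0120), where it called 38.9%. Both differences gave an exact two-sided permutation p of 0.1, the smallest that 3 libraries against 3 allow. The median log2 fold change over all genes in this limma fit was 0.085 in Cond 2 and 0.012 in Cond 3. In Cond 4 the groups overlapped, with a log2 fold change of 0.091 (limma adjusted p = 0.895).

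**Figure D1:**
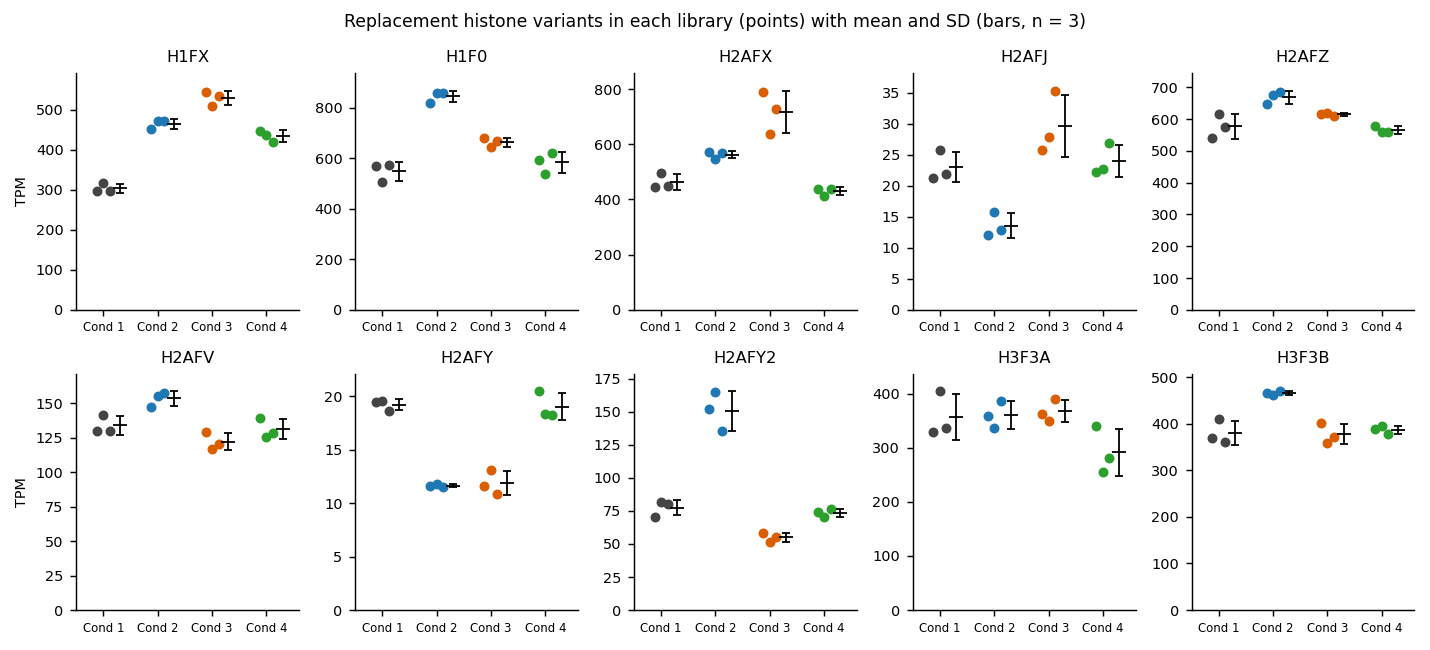
TPM (vertical axes, from 0) of the 10 replacement variants in each of the 3 libraries of Cond 1 to Cond 4, with the mean and SD beside the points. H1FX is lowest in Cond 1 and highest in Cond 3, H2AFY is lower in Cond 2 and Cond 3 than in the other conditions, and H2AFY2 is highest in Cond 2, at 135 to 165 TPM.

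The macroH2A genes differed from each other. MacroH2A carries a large domain beyond the histone fold and is known from silent chromatin, including differentiated cells. H2AFY, which encodes macroH2A1, had 19.5, 19.6 and 18.6 TPM in Cond 1, 11.7, 11.8 and 11.5 in Cond 2, 11.6, 13.1 and 10.9 in Cond 3, and 20.5, 18.3 and 18.3 in Cond 4. The libraries of Cond 2 and Cond 3 lay below those of Cond 1 and overlapped each other. Its log2 fold change was -0.81 in Cond 2 (SE 0.0715, edgeR adjusted p = 1.28e-08) and -0.72 in Cond 3 (SE 0.0712, edgeR adjusted p = 3.70e-08). H2AFY2, which encodes macroH2A2, had 70.7, 81.7 and 80.3 TPM in Cond 1, 152, 165 and 135 in Cond 2, 58.4, 51.8 and 55.0 in Cond 3, and 73.8, 70.2 and 76.6 in Cond 4. It was highest in Cond 2 and lowest in Cond 3, with no overlap between these and Cond 1. Relative to Cond 1, H2AFY2 had a log2 fold change of 0.87 in Cond 2 (SE 0.0858, edgeR adjusted p = 6.64e-08) and -0.52 in Cond 3 (SE 0.0890, edgeR adjusted p = 6.40e-05), and Cond 3 against Cond 2 gave -1.40 (edgeR adjusted p = 2.76e-11). The log2 ratio of H2AFY2 to H2AFY reads averaged -1.19 with an SD of 0.132 over the 3 libraries of Cond 1, and 0.49 with an SD of 0.128 over the 3 of Cond 2. This pair was compared after its values were seen (two-sided exact p = 0.1).

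Among the other H2A variants, H2AFX and H2AFJ moved in both altered media. H2AFX encodes H2A.X, which is phosphorylated at DNA breaks. It had 445, 498 and 450 TPM in Cond 1, 571, 547 and 569 in Cond 2, 789, 636 and 726 in Cond 3, and 439, 413 and 439 in Cond 4. Each library of Cond 3 lay above each of Cond 2, and each of Cond 2 above Cond 1. Its log2 fold change was 0.60 in Cond 3 (SE 0.0661, edgeR adjusted p = 1.95e-07). In Cond 2 it was 0.19 (edgeR adjusted p = 0.0432), a call lost without Cond 1 replicate 1 or 3 or Cond 2 replicate 1 or 3, where the adjusted p reached 0.182. H2AFJ, which encodes the H2A.J variant, had 21.3, 25.8 and 21.9 TPM in Cond 1, 12.03, 15.8 and 12.8 in Cond 2, 25.8, 27.9 and 35.3 in Cond 3, and 22.2, 22.7 and 26.9 in Cond 4. It was lowest in Cond 2, and the lowest library of Cond 3 lay only just above the highest of Cond 1, both at 25.8. The log2 fold change was -0.85 in Cond 2 (SE 0.134, edgeR adjusted p = 5.03e-05) and 0.34 in Cond 3 (edgeR adjusted p = 0.0367), and the latter call was lost without Cond 1 replicate 1 or 3 or without Cond 3 replicate 3, where the log2 fold change was 0.19.

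The H2A.Z and H3.3 genes, which supply histone to active promoters and transcribed regions, had smaller differences. H2AFZ lay between 540 and 684 TPM in the 12 libraries and passed the test in none of the 4 comparisons. H2AFV, the other H2A.Z gene, had a log2 fold change of -0.16 in Cond 3 (edgeR adjusted p = 0.0316), a call lost without Cond 1 replicate 2 or without Cond 3 replicate 2 or 3, where the adjusted p reached 0.133. H3F3A and H3F3B encode the same H3.3 protein. H3F3B had 368, 410 and 362 TPM in Cond 1 and 467, 461 and 470 in Cond 2, with no overlap and a log2 fold change of 0.21 (SE 0.0516, edgeR adjusted p = 0.00485). H3F3A lay between 255 and 405 TPM and passed no test, with a log2 fold change of -0.30 in Cond 4 (unadjusted p = 0.00176, edgeR adjusted p = 0.662) on libraries that overlapped.

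Counted over the 9 variants with a count row, edgeR called 4 higher and 2 lower in Cond 2 and 3 higher and 3 lower in Cond 3. The background in all genes was 20.9% called in Cond 2 and 38.4% in Cond 3. The median log2 fold change over these variants was 0.13 in Cond 2 and 0.014 in Cond 3, beside 0.00018 and -0.0064 over all genes tested. With a fold change above 2 required as well, 0 of the 9 were called in Cond 2, Cond 3 or Cond 4, where all genes gave 4.34%, 8.16% and 0.0169%. The variants had a median of 3497 reads per library and the median gene tested had 287.

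Clustered histone genes were higher in Cond 3 when summed. The summed TPM of all 75 genes was 215, 205 and 216 in Cond 1, 220, 265 and 218 in Cond 2, 316, 261 and 332 in Cond 3, and 226, 217 and 224 in Cond 4. The 3 libraries of Cond 3 lay above all those of Cond 1 and Cond 4, and 1 of them lay below the highest of Cond 2. Against Cond 1, the log2 ratio of means was 0.14 for Cond 2, 0.52 for Cond 3 and 0.07 for Cond 4. The direction for Cond 2 turned on summed CPM, where its log2 ratio was -0.0386. CPM here was scaled by edgeR's library factors and not divided by length, so it differs from TPM in both. The ratio for Cond 4 was 0.17 in the 50 genes with at least 80% unique words. A sum over chosen genes is given here as a description, with no test.

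The families differed in this. H3 genes summed to 11.04 ± 1.17 TPM in Cond 1 and to 27.1 ± 5.77 TPM in Cond 3 (SD, n = 3), a log2 ratio of 1.30. H4 genes had 17.5 ± 2.18 (SD, n = 3) and 35.7 ± 2.21 (SD, n = 3), a log2 ratio of 1.03. The ratio was 0.71 for H2A and 0.61 for H1 genes, and for H2B genes it was 0.19, with overlapping libraries. HIST1H2BK had the highest level among the H2B genes, and without it the log2 ratio of all other clustered genes in Cond 3 was 0.76. In Cond 2 the log2 ratios of the family sums ran from -0.37 for H4 to 0.64 for H1 genes, with 0.21 for H2B, 0.06 for H3 and -0.18 for H2A genes.

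**Figure D2:**
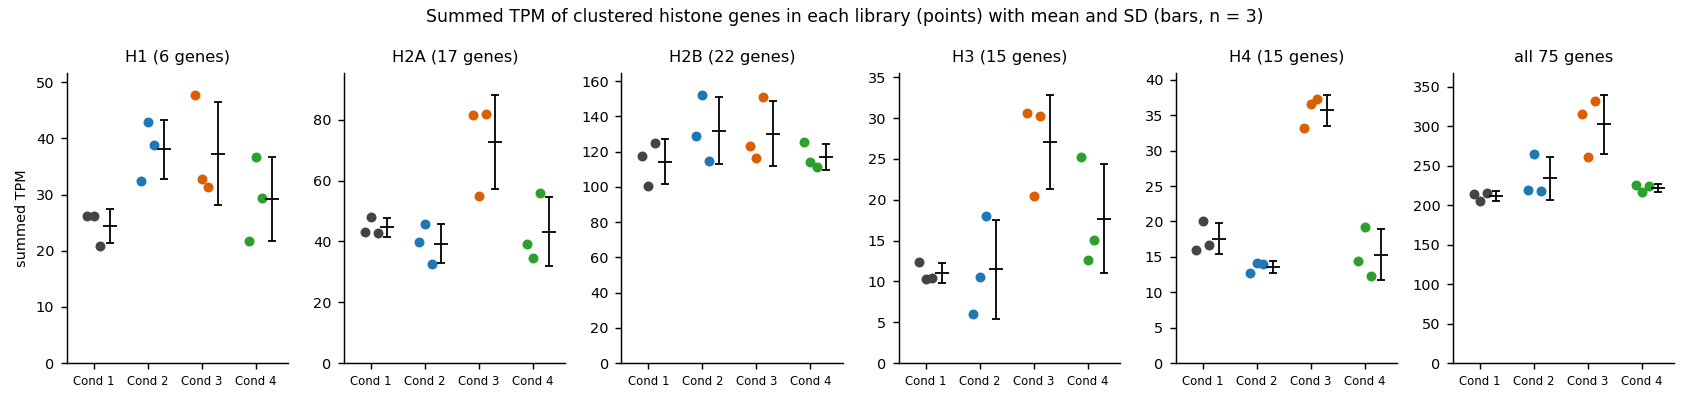
Summed TPM (vertical axes, from 0) of the clustered genes of each histone family and of all 75 in the 3 libraries of each condition, with the mean and SD beside the points. The H3 and H4 sums of Cond 3, at 20.5 to 30.6 and 33.2 to 37.3, lie above those of Cond 1, whereas the H2B sums overlap in all conditions.

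Gene by gene, 28 of the 75 clustered genes passed edgeR's filter on low counts, and 47 had too few reads to be tested. Of the 28, 4 (HIST1H3A, HIST1H4D, HIST1H2AL and HIST1H1B) reached the filter's minimum in fewer than 3 libraries outside Cond 3. A gene that passes only through the group in which it is high has to differ, so the counts over these genes describe them and support nothing more. In Cond 3 against Cond 1, 7 were called higher and 1 lower, or 28.6% of those tested, against 38.4% of all genes. The calls in 1 direction were 19.5% higher and 18.8% lower over all genes. Without the filter, 63 clustered genes had any read, and 8 were called higher and 1 lower against 18.9% of all genes. The median log2 fold change over the 63 was 0.86, and over all 34551 genes in that fit it was 0.

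HIST1H2AG, an H2A gene, had the smallest adjusted p among the clustered genes. Its levels were 1.69, 1.98 and 2.12 TPM in Cond 1, 1.23, 2.49 and 1.66 in Cond 2, 5.73, 5.28 and 9.04 in Cond 3, and 4.41, 3.204 and 2.71 in Cond 4. The libraries of Cond 3, with 65 to 108 reads, lay above all others. Its log2 fold change was 1.75 in Cond 3 (SE 0.324, edgeR adjusted p = 1.60e-04) and 0.81 in Cond 4 (edgeR adjusted p = 0.790). HIST1H2BH, an H2B gene, had 6.52, 8.23 and 10.7 TPM in Cond 1 and 15.3, 16.9 and 18.6 in Cond 3, with no overlap and a log2 fold change of 0.96 (SE 0.209, edgeR adjusted p = 8.07e-04).

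The H3 genes HIST1H3A and HIST1H3G and the H4 gene HIST1H4I were also called higher. HIST1H3A had 0.883, 0 and 1.25 TPM in Cond 1 and 6.35, 2.22 and 5.50 in Cond 3, from at most 16 reads per library. The groups did not overlap, and the log2 fold change was 2.54 (SE 0.921, edgeR adjusted p = 0.0325). Yet the call held only without Cond 3 replicate 2 among the 6 fits that each left out a library. HIST1H3A reached the filter's minimum in fewer than 3 libraries outside Cond 3, so its call describes it and supports nothing more. HIST1H3G had 0.678, 0.879 and 0.0708 TPM in Cond 1 and 1.83, 0.909 and 3.36 in Cond 3, and its log2 fold change of 1.90 (SE 0.657, edgeR adjusted p = 0.0256) was no longer called without Cond 1 replicate 1 or 3 or Cond 3 replicate 1 or 3, where it fell to as low as 1.33. HIST1H4I, an H4 gene, had 3.23, 3.44 and 4.35 TPM in Cond 1 and 6.43, 8.61 and 8.45 in Cond 3. These did not overlap, with a log2 fold change of 1.05 (SE 0.325, edgeR adjusted p = 0.0131) that was 0.96 (edgeR adjusted p = 0.0541) without Cond 1 replicate 1.

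HIST1H1C, which encodes the linker histone H1.2, had 18.1, 19.1 and 15.9 TPM in Cond 1, 24.3, 30.5 and 22.6 in Cond 2, and 40.7, 28.4 and 26.1 in Cond 3. Both altered media lay above Cond 1. The log2 fold change was 0.82 in Cond 3 (SE 0.236, edgeR adjusted p = 0.00836), which became 0.60 (edgeR adjusted p = 0.0774) without Cond 3 replicate 1, and 0.46 in Cond 2 (edgeR adjusted p = 0.193). HIST1H2BD, an H2B gene, had 8.13, 5.11 and 6.47 TPM in Cond 1 and 9.74, 13.8 and 14.3 in Cond 3, a log2 fold change of 0.90 (edgeR adjusted p = 0.0264) whose call was lost without Cond 1 replicate 2 or 3 or Cond 3 replicate 2 or 3, with an adjusted p of up to 0.0968.

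HIST1H2AC was the clustered gene that fell. It had 17.3, 17.9 and 15.4 TPM in Cond 1, 13.05, 16.1 and 10.7 in Cond 2, 8.02, 11.3 and 11.2 in Cond 3, and 20.9, 13.9 and 25.2 in Cond 4. Cond 3 lay below Cond 1 in every library, with a log2 fold change of -0.76 (SE 0.212, edgeR adjusted p = 0.00651). Its annotation includes a transcript that runs 1128 bases beyond the stem-loop printed above. HIST2H2AC, the other H2A gene among the most abundant, had 11.6, 17.9 and 12.3 TPM in Cond 1 and 35.2, 16.4 and 24.2 in Cond 3, which overlapped, and did not pass (log2 fold change 0.84, edgeR adjusted p = 0.0667).

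**Figure D3:**
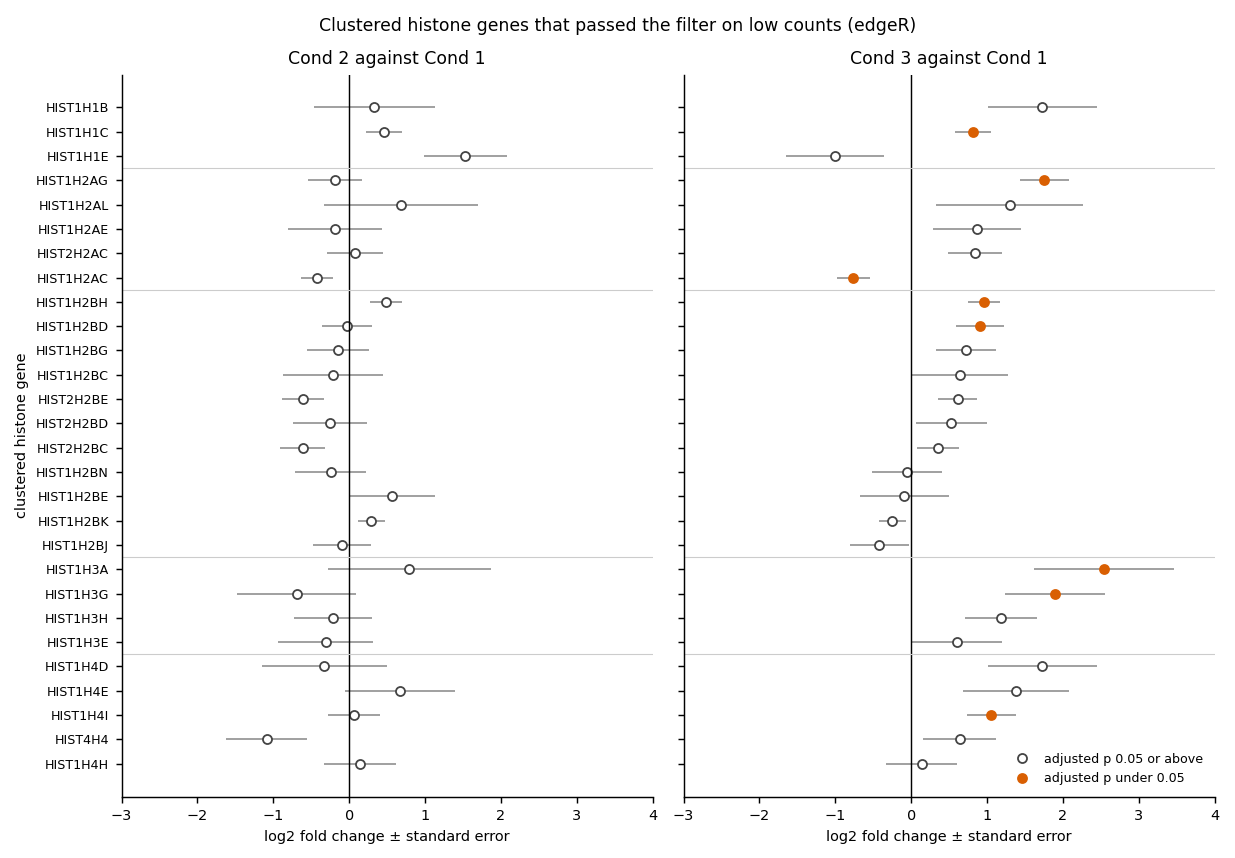
Log2 fold changes with standard errors (horizontal axes) of the 28 clustered genes tested by edgeR, in Cond 2 (left) and Cond 3 (right) against Cond 1, grouped by family from H1 at the top to H4. Filled points mark an adjusted p under 0.05, and there are 8 in Cond 3, of which HIST1H2AC alone lies below 0, and none in Cond 2.

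A stretch of promoter shared by an H2A and an H2B gene allowed a comparison within pairs. Of 12 such divergent pairs with starts at most 500 bases apart, 4 had both genes tested. In HIST1H2AG and HIST1H2BJ, whose starts are 248 bases apart on the printed sequence, the log2 ratio of reads was -0.56, 0.39 and -0.40 in Cond 1, -0.36, 0.05 and -0.78 in Cond 2, 1.84, 1.77 and 2.11 in Cond 3, and 0.85, 0.96 and -0.35 in Cond 4. The libraries of Cond 3 lay above all others. The ratio differed from Cond 1 by 2.1 (exact two-sided permutation p = 0.1, the smallest possible, and 0.6 after adjustment over 12 tests in 4 pairs and 3 conditions). HIST1H2BJ itself had 5.92, 3.57 and 6.65 TPM in Cond 1 and 3.78, 3.65 and 4.96 in Cond 3, which overlapped (log2 fold change -0.42, SE 0.391, edgeR adjusted p = 0.432). In HIST1H2AE and HIST1H2BG the ratio in Cond 3 differed from that in Cond 1 by 0.22 (exact p = 0.6) and in HIST2H2AC and HIST2H2BE by 0.15 (exact p = 0.8). In HIST1H2AC and HIST1H2BC it differed by -1.72 (exact p = 0.2).

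**Figure D4:**
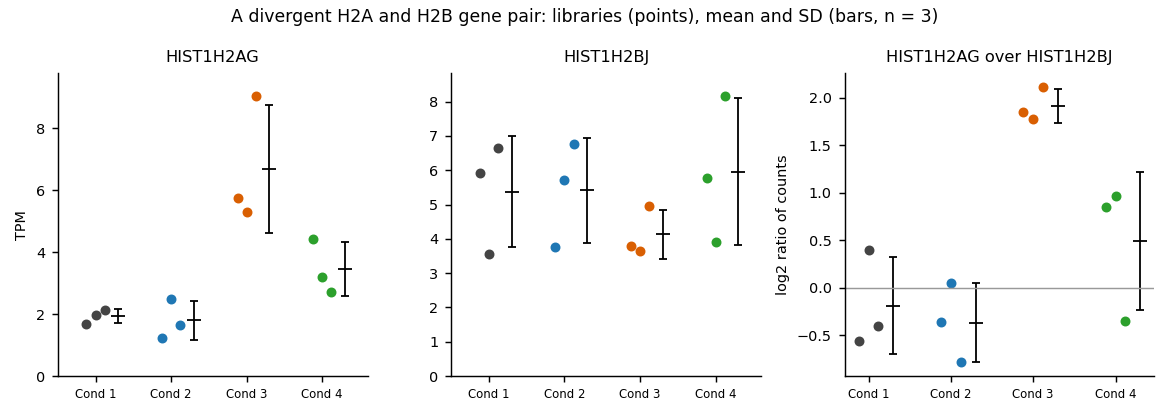
TPM of HIST1H2AG and HIST1H2BJ (left and middle, from 0) and the log2 ratio of their read counts (right) in the 3 libraries of each condition, with the mean and SD beside the points. In Cond 3 the ratio is 1.77 to 2.11 and in Cond 1 it is -0.56 to 0.39.

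In Cond 2 none of the 28 clustered genes was called by edgeR against Cond 1, where 20.9% of all genes were, and 4 had an unadjusted p under 0.05. DESeq2 called 1 and limma on log2(TPM + 1) called 0 of the 12 that it tested. The clustered genes tested had a median of 21.4 reads per library against 287 for all genes tested. The closest was HIST1H1E, a linker histone gene, with 3.13, 1.97 and 1.81 TPM in Cond 1, 6.04, 5.81 and 9.63 in Cond 2 and 2.16, 0.484 and 0.750 in Cond 3. The libraries of Cond 2 lay above all of Cond 1 and Cond 3, with a log2 fold change against Cond 1 of 1.53 (SE 0.550, edgeR adjusted p = 0.0510, DESeq2 adjusted p = 0.0475). HIST1H2AI, an H2A gene named after its values were seen, had 6, 1 and 15 reads in Cond 1, 0 in each library of Cond 2 and 11, 6 and 21 in Cond 3. It did not pass the filter, and only 35.1% of its 31-base words were unique.

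In Cond 3 against Cond 2, 9 clustered genes were called higher and 2 lower, or 39.3% of 28 against 38.2% of all genes (19% higher and 19.2% lower). With a fold change above 2 as well 7 were called, against 8.77%. Among the higher genes was HIST2H2BC, an annotated pseudogene, with a log2 fold change of 0.97 (edgeR adjusted p = 0.0106). HIST2H2BC was counted on 6440 bases and has 580 in GENCODE release 44. HIST1H1E was lower, with a log2 fold change of -2.53 (SE 0.594, edgeR adjusted p = 0.00164). HIST1H2BK, with 86.7, 102 and 73.0 TPM in Cond 2 and 51.4, 52.3 and 69.7 in Cond 3, was lower by a log2 fold change of -0.54 (edgeR adjusted p = 0.0186), a call lost without Cond 2 replicate 2 or without Cond 3 replicate 1 or 2, where the adjusted p reached 0.112. The higher genes included HIST1H2AG (1.94, edgeR adjusted p = 5.77e-05) and HIST2H2BE (1.22, edgeR adjusted p = 9.73e-04). HIST2H2BE, an H2B gene with an annotated tail of 1729 bases beyond its stem-loop, had 2.25, 5.99 and 5.30 TPM in Cond 2 and 11.8, 8.32 and 10.1 in Cond 3, without overlap. HIST1H3G (log2 fold change 2.59, edgeR adjusted p = 0.00488) lost its call without Cond 3 replicate 3, where the change was 2.03, and HIST4H4 (1.72, edgeR adjusted p = 0.0112) lost it without Cond 2 replicate 2, at 1.36, or Cond 3 replicate 1, at 1.55. HIST1H3H (1.39, edgeR adjusted p = 0.0249) lost it without Cond 2 replicate 1 or 2 or Cond 3 replicate 3, at 1.10 to 1.27. HIST1H4D (2.05, edgeR adjusted p = 0.0311) kept its call only without Cond 2 replicate 1. As given above, HIST1H4D reached the filter's minimum in fewer than 3 libraries outside Cond 3, so its call supports nothing more.

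Of the variants, 6 of 9 were called in Cond 3 against Cond 2, where 38.2% of all genes were. The variants had far more reads than the median gene tested, as given above. The rise of H2AFJ, by a log2 fold change of 1.19 (edgeR adjusted p = 2.20e-07), and the fall of H2AFY2 given above were the only ones past a doubling. H1FX and H2AFX were higher in Cond 3 by 0.25 and 0.41, and H2AFV and H3F3B were lower by log2 fold changes of -0.27 and -0.25. H1F0, on TPM with limma, was lower with a log2 fold change of -0.35 (limma adjusted p = 0.00325, where 40.8% of genes were called). The median over all genes in that limma fit was -0.069.

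In Cond 4 no clustered gene was called by edgeR, DESeq2 or limma, and 2 had an unadjusted p under 0.05 with edgeR. The H3 sum ranged from 12.6 to 25.3 TPM there, with its highest value in the library in which HIST1H3A had 14 reads against 2 in each of the other libraries of that condition.

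Lists of genes that act with histones were read against the share called over all genes. That share was 10.8% higher and 10.1% lower in Cond 2 and 19.5% higher and 18.8% lower in Cond 3. Of 35 genes of DNA replication in S phase that were tested, 23 were higher and 2 lower in Cond 3, with a median log2 fold change of 0.30, and 12 were higher and 1 lower in Cond 2, with a median of 0.07. Their summed TPM was 4318 to 4536 in Cond 1, 4792 to 5018 in Cond 2 and 5361 to 5506 in Cond 3. PCNA, the replication clamp, had a log2 fold change of 0.46 in Cond 3 (edgeR adjusted p = 9.31e-07), and MCM4, a subunit of the replicative helicase, 0.49 (edgeR adjusted p = 3.02e-08). The part of these genes in the levels of the clustered genes was not tested.

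Of 23 tested genes of histone mRNA processing and decay, 7 were higher and 2 lower in Cond 3 and 4 higher and 1 lower in Cond 2, with medians of 0.09 and 0.07. Both counts lie near the shares over all genes, 38.4% in Cond 3 and 20.9% in Cond 2, and are no result about this list. Cond 1 libraries had 113 ± 12.1 TPM of SLBP and Cond 3 libraries 144 ± 6.70 TPM (SD, n = 3), a log2 fold change of 0.32 (edgeR adjusted p = 0.00227). CCNE1, cyclin E1, which with its kinase activates histone gene transcription through NPAT, had 53.0 ± 5.65 and 108 ± 5.79 TPM (SD, n = 3), a log2 fold change of 1.00 (edgeR adjusted p = 3.78e-09). Of 26 tested histone chaperones and exchange factors, 5 were higher and 2 lower in Cond 3, a smaller share than the 38.4% over all genes. The higher ones included NASP, a chaperone of H3 and H4 and of linker histones, at 0.52 (edgeR adjusted p = 1.94e-09), ASF1B, a chaperone of H3 and H4, at 0.55 (edgeR adjusted p = 2.59e-06), and ANP32E, which removes H2A.Z, at 0.54 (edgeR adjusted p = 3.11e-08). None of these 3 lists had a gene called in Cond 4.

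RNAs that lack a poly(A) tail were listed as a background for the selection. Of 26 such RNAs 15 were at 0 in every library, and their summed TPM was 115 to 164 in Cond 1, 104 to 161 in Cond 2, 147 to 192 in Cond 3 and 110 to 139 in Cond 4. Only 2 passed the filter. Their median change on the log2 scale was 0.36 from Cond 1 to Cond 3, where only 1 of the 2 was positive. From Cond 2 to Cond 3 it was 0.54, with both positive. Neither RNA was called in any comparison. Their part in the levels of the clustered genes was not tested.

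Markers of other cell types moved with the conditions. The summed TPM of 6 neuroectoderm genes was 17.2 to 23.8 in Cond 1 and 253 to 416 in Cond 2, mostly from SIX3 and HESX1, with SOX1 at 0 in 4 of 12 libraries. In Cond 2, 4 of the 5 neuroectoderm genes tested were higher, as were both tested genes of surface ectoderm, TFAP2A and GATA3, and 3 of 4 fibroblast genes tested were lower, with a summed TPM of 256 to 305. Over all genes 10.8% were higher and 10.1% lower in Cond 2, and 19.5% higher and 18.8% lower in Cond 3. In Cond 3 the fibroblast genes COL1A1 and COL1A2 were higher and THY1 was lower, with a summed TPM of 416 to 447 in Cond 1 and 579 to 615 in Cond 3, while DCN was at 0 in 11 and LUM in 8 of 12 libraries. Of 6 mesendoderm genes in the table only 2 were tested, of which TBXT was called higher in Cond 3. The part of other cell types in the histone levels was not tested.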

How the data were processed

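RNA-Seq of 12 libraries of 201B7 was used, 3 for each condition. According to the labels and the methods, the authors made strand-specific libraries from poly(A) RNA, trimmed reads with cutadapt 4.1 and fastp 0.20.1, aligned them to GRCh38 with HISAT2 2.1.0 and obtained gene counts by featureCounts. The release of the annotation and the treatment of reads with several matches are not given in the sources used here. The authors deposited read counts per gene, without normalization, and TPM computed from these counts and gene lengths, which could be recomputed to a relative deviation of 1.79e-14. Total counts were 16441148 to 21871503 per library. The count table as used here held 58575 genes, and 5 lines that were no whole gene row were left out. H1F0 was among 2042 genes with TPM only.

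A single edgeR model (version 4.0.16, R 4.3.3) with TMM factors was fitted to the counts of the 12 libraries. Its quasi-likelihood test compared each altered condition with Cond 1, and Cond 3 with Cond 2. The 3 comparisons with Cond 1 share its libraries. The filter kept 17747 genes with a CPM of at least about 0.533 in at least 3 libraries, and p-values were adjusted over these by the Benjamini-Hochberg method with a threshold of 0.05. H1F0 was tested with limma 3.58.1 on log2(TPM + 1) in genes with at least 1 TPM in all libraries. Alternatives were DESeq2 1.42.0, other normalizations and filters, limma, the 6 libraries alone, the replicate number as a block, and each replicate left out. The scripts were tested on simulated data.

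Members and gene lists were chosen with earlier results of these data known. The text names all 10 variants, the 10 clustered genes with the highest mean TPM, up to 5 clustered genes called per comparison and direction with the largest change, and called genes of the lists with the highest level. Coordinates, transcripts and shared 31-base words came from GENCODE release 44, in which 83 of 85 members were found, and promoters from RefSeq on GRCh38.p14, where 74 matched.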

Additional observations from a re-analysis of the deposited data

How the results depend on the processing

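The direction of every named change that edgeR called was kept in all alternatives that tested the gene, as was that of H1F0. Of 574 recomputed fold changes in 41 results, 513 stayed on the same side of the threshold and 61 no longer passed. With each library left out in turn, the clustered genes called numbered 5 to 9 in Cond 3 against Cond 1, 7 to 12 in Cond 3 against Cond 2 and 1 in each fit of Cond 2 against Cond 1 (HIST1H2AI in 5 of these, HIST1H2BH in the other, without Cond 1 replicate 3). The lowest count in Cond 3 against Cond 1 came without Cond 3 replicate 1 or 3, and that in Cond 3 against Cond 2 without Cond 3 replicate 3. In Cond 2 against Cond 1, where edgeR called 0 clustered genes, DESeq2 called 1 (HIST1H1E), no filter on low counts 1 (HIST1H2AI) and the 6 libraries alone 1 (HIST1H1E). With a fold change above 2 required as well, 4 clustered genes were called in Cond 3 against Cond 1 and 7 in Cond 3 against Cond 2, and of the variants 0 in Cond 2, 0 in Cond 3 and 0 in Cond 4 against Cond 1 and 2 in Cond 3 against Cond 2. In Cond 3 against Cond 2, limma on log2(TPM + 1) called 7 clustered genes and on log2(TPM + 0.1) 6, among only 12 tested. Without the filter 2 variants were called in Cond 4. With each library left out the variants called numbered 5 to 7 in Cond 2 and 4 to 6 in Cond 3.

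The log2 ratio of the summed level of clustered genes in Cond 2 was -0.0386 on summed CPM and 0.022 without HIST1H2BK. In Cond 3 against Cond 1 it was 0.78 in the 50 genes with at least 80% unique words and 0.76 without HIST1H2BK. In Cond 4 it was 0.12 on summed CPM and 0.17 in the genes with unique words. In Cond 3 against Cond 2 it was 0.56 on summed CPM, 0.64 in the genes with unique words and 0.74 without HIST1H2BK. With each library left out it was 0.05 to 0.19 in Cond 2, 0.44 to 0.61 in Cond 3 and 0.05 to 0.09 in Cond 4 against Cond 1, and 0.30 to 0.47 in Cond 3 against Cond 2. The cause of these differences was not tested.

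Replicate numbers did not pair the libraries, with correlations of deviations from -0.0131 to 0.0379 over 18 pairs. With the replicate number as a block, 0, 8, 0 and 11 clustered and 6, 6, 1 and 6 variant genes were called in the 4 comparisons, the same numbers as without the block. Depth limits the clustered genes, 47 of which had too few reads to be tested.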
